A study of Mus musculus with 6 samples.

Results

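The promoters described here belong to 79 genes for the proteins of the cytosolic ribosome, out of 21938 protein-coding genes of the GENCODE mouse annotation on chromosomes 1 to 19, X and Y. They are all coding genes whose symbol is Rpl, Rps or Rplp followed by digits and at most 1 letter, which keeps out pseudogenes and the S6 kinase genes. By symbol, 46 encode proteins of the large subunit, 30 of the small subunit and 3 (Rplp0, Rplp1, Rplp2) the P proteins of the stalk. The study profiled open chromatin with ATAC-seq, in which the Tn5 transposase cuts accessible DNA and inserts sequencing adapters, in the S1 segment of the kidney proximal tubule, the stretch that starts at the glomerulus. Wild-type male C57BL/6 mice from Taconic, 7 weeks old, had a sham operation (Sham, 3 libraries) or lost 1 kidney by surgical excision (unilateral nephrectomy, UNx, 3 libraries), and tubules were taken at 24 h. Each library was made from 3 hand-dissected tubules. Whether the 3 libraries of a group came from different mice is not stated, so the p-values below may measure only technical spread.

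Ribosomal proteins are assembled with ribosomal RNA in the nucleolus and are needed in equal amounts, so their genes are active in nearly every cell. Their mRNAs start with a cytosine and a run of pyrimidines, the terminal oligopyrimidine motif, through which the growth-sensing kinase mTORC1 sets their translation. The kidney that stays after nephrectomy grows, chiefly by enlargement of proximal tubule cells, and mTORC1 and S6 kinase, which phosphorylates the small-subunit protein Rps6, are known to be needed for that growth.

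The members were chosen by name, so what their promoters share in sequence is a separate description. The string TCTCGCGA, bound by ZBTB33 (Kaiso) among others, and the string CCGGAAG of ETS factors such as GABP were both more frequent in these promoters than in all coding promoters, and 3 promoters that hold the first are shown, because they include Rps6 and the gene with the largest negative difference between UNx and Sham. Rps6 and Rpl26 also hold the second. Every stretch runs 5′ to 3′ along the gene, from 150 bases before the annotated start to 30 bases from the start on, and capitals mark both strings on either strand. They lie in GRCm38, with Rps6 at chr4:86857383-86857562 (minus strand), Rpl26 at chr11:68901433-68901612 (plus strand) and Rpl23a at chr11:78183555-78183734 (minus strand).
Rps6: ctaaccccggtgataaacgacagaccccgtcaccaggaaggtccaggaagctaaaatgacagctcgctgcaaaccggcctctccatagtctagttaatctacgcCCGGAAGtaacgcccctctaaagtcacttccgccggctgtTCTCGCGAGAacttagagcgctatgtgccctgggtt
Rpl26: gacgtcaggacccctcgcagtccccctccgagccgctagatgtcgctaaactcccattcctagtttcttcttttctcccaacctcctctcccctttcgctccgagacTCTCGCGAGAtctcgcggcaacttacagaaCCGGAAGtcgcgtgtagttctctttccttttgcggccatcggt
Rpl23a: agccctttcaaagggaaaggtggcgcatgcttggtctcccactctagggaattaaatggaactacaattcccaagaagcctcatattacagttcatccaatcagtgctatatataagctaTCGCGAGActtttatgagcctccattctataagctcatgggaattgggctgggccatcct

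In Rps6 and Rpl26 the capitals around CGCG read the same on both strands, so TCTCGCGA and its reverse complement overlap there, while Rpl23a holds the string on the opposite strand only. For the pyrimidine run, 3 shorter stretches are shown, from 30 bases before to 30 bases from the start on, with the longest run in capitals. In Rpl4 the run spans the annotated start. In Rpl26 and Rpl11 it lies inside the annotated transcript. They lie in GRCm38, with Rpl4 at chr9:64173345-64173404 (plus strand), Rpl26 at chr11:68901553-68901612 (plus strand) and Rpl11 at chr4:136053364-136053423 (minus strand).
Rpl4: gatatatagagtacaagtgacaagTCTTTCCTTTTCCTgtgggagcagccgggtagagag
Rpl26: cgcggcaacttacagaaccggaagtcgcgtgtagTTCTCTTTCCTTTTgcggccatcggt
Rpl11: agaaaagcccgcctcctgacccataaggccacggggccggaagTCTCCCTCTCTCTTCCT

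Counted over the 73 genes with a peak in every library and outside chromosome 18, against 12114 coding genes chosen the same way, TCTCGCGA occurred in 11 promoters (15.1%, against 2.25% of all), on either strand within 250 bases before and 50 after the start. CCGGAAG occurred in 24 (32.9%, against 18%). The other strings differed by fewer percentage points or in the other direction: AAGATGGCG of YY1 in 6.85% (3.08% of all), TATAAA of the TATA box in 9.59% (6.22%), TGCGCATG of NRF1 in 6.85% (3.88%), TGACGTCA of CREB and ATF in 6.85% (3.60%), CACGTG of Myc and USF in 9.59% (10.3%), CCAAT in 32.9% (38.4%) and GGGCGG of SP1 in 56.2% (67.4%). None of these strings contains another, though matches can overlap in part, and a match is only a string, not a bound site. Of the 8 TATAAA matches, 6 lay at or after the annotated start. The genes with TCTCGCGA included Rpl23a, Rpl26, Rpl27a, Rpl4, Rpl7a, Rps15a, Rps19, Rps28 and Rps6.

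A run of at least 8 pyrimidines began, ended or crossed within 30 bases of the start in 43 of the 73 genes (58.9%), against 24.6% of all coding genes, and a run of at least 12 in 16 (21.9%, against 6.79%). The median longest run was 8 bases, against 6. The start base itself was a cytosine in 25 genes (34.2%, against 17.1%). The annotated start used is the one nearest the ATAC-seq summit, and need not be the base where most transcripts begin. The 300 bp windows had a median GC content of 56.3% (39.3% to 72.0%), below the 61.7% of all coding promoters. The longest run by gene bore no relation to accessibility rank across the 73 genes (Spearman rho −0.01, a description across genes).

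**Figure D1:**
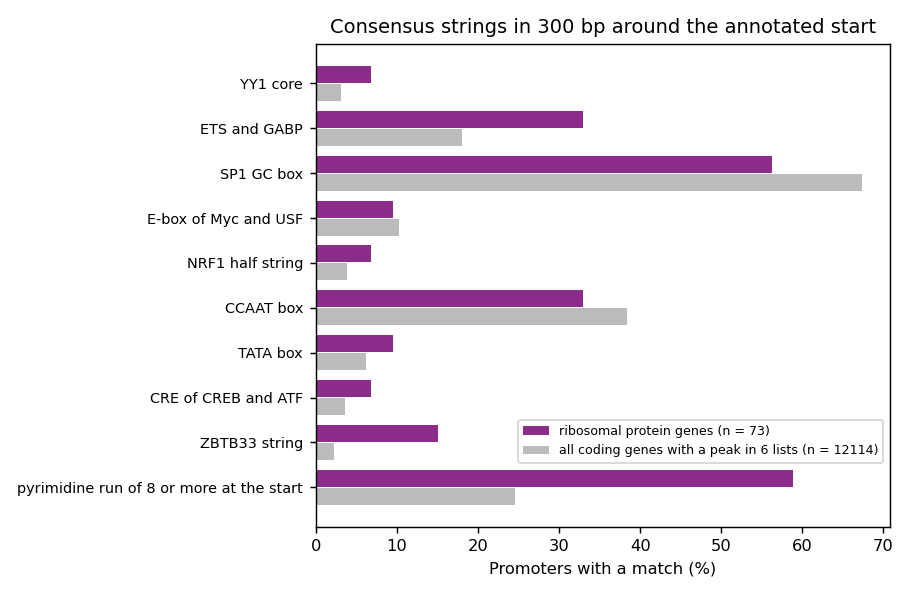
Share of promoters (%, x axis) with a match to each consensus string on either strand in the 300 bp window, and with a run of at least 8 pyrimidines near the start, for 73 ribosomal protein genes (purple bars) and 12114 coding genes (grey bars, which include the 73). The pyrimidine run (58.9% against 24.6%), the ZBTB33 string (15.1% against 2.25%) and the ETS string (32.9% against 18%) have the purple bars that are longer by the most percentage points; those of YY1, TATA, NRF1 and CRE (TGACGTCA) are longer by less, and the SP1, CCAAT and E-box (CACGTG) strings have the longer grey bars.

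The 6 peak lists held 77355 to 100999 peaks, with a median −log10 q of 12.1 to 26.5 and a median fold enrichment of 5.65 to 6.01. They hold no read counts, so sequencing depth is unknown, and the values of a peak are the authors' own, comparable only within a list. Peaks were therefore ranked by −log10 q within each list, each cut to its 77355 strongest peaks, and given a percentile from 100 (the strongest) down to 0 (no peak). The 6 S1 marker genes had a promoter peak in every list, with mean percentiles of 65.1 (Slc22a6) to 94.5 (Lrp2). Among 20 markers of other cells, Slc7a13, Slc12a3, Aqp2, Slc4a1, Dcn, Pdgfrb, Ptprc and Lyz2 had a peak in none, while Fxyd4 (86.5), Aqp3 (83.6), Umod (67.4), Calb1 (65.6), Slc22a7 (58.4) and Slc12a1 (43.5) had one in all 6, and the other 6 in 1 to 5 lists. Slc12a1, the loop transporter, was at 52.4 to 60.2 in Sham and 19.4 to 38.2 in UNx, and Slc22a7, of the S3 segment, at 59.4 to 72.6 and 40.9 to 58.6, with no overlap of the groups for either (limma adjusted p = 0.205 and 0.317). Umod, another loop gene, went the other way, with a mean of 65.4 in Sham and 69.4 in UNx (limma adjusted p = 0.775). Aqp3, of the collecting duct, was also higher in UNx, with means of 81.5 and 85.6 and no overlap (limma adjusted p = 0.605). Of the 6 S1 markers, 4 had a lower mean in UNx and 2 a higher one. Lrp2 (means 96.2 and 92.8) and Cubn (90.8 and 84.2) were lower without overlap (limma adjusted p = 0.311 and 0.365). The part of other segments in the results below was not tested.

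Of the 79 genes, 75 had a promoter peak, with its summit within 1 kb of an annotated start, in all 6 lists, Rpl3l had one in 3, and Rps25, Rpl10l and Rpl39l had none in the lists as analysed here. Among all 21938 coding genes, 12425 had one in all 6 lists, 1489 in some and 8024 in none. Rpl10l and Rpl39l are paralogues of Rpl10 and Rpl39 used mainly in testis, and Rpl3l is a paralogue of Rpl3 used in heart and skeletal muscle. Their widely used counterparts were open in every library, with mean percentiles of 75.6 for Rpl10, 83.1 for Rpl39 and 88.7 for Rpl3.

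Rpl3l stood at 16.3 in Sham 2, 3.43 in Sham 3 and 11.2 in UNx 3, and at 0 in Sham 1, UNx 1 and UNx 2. The peak lay at the downstream one of its 2 annotated starts. In Sham 1 an interval overlapped that start but was not among the 77355 strongest, whereas in UNx 1 and UNx 2 the nearest interval was 3209 and 3199 bp away. The intervals nearest to the starts of Rpl10l lay 7058 to 7204 bp away, and those nearest to Rpl39l 22260 to 22468 bp. Rps25, a small-subunit protein of all cells, also had its nearest interval 9576 to 9889 bp from any of its 3 annotated starts. The filter behind the lists is not given and rows may be absent, so a gene with no peak here is not shown to have a closed promoter. Another paralogue, Rps27l, which p53 induces, was open in every library at a mean percentile of 93.5, next to 92.7 for Rps27.

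Ribosomal protein promoters were seldom among the weak promoter peaks. Over the 76 tested genes (those with a peak in at least 3 lists) the mean percentile had a median of 88.7, with 10% of them below 69.4 and 10% above 97.1. For all 13300 tested coding genes the median was 86.2, with 10% below 40.7 and 10% above 97.9. The largest gap between the distributions was thus at their low end. In each list 57 to 68 of the 76 genes (75% to 89.5%) were among the 20000 strongest peaks, against 67.9% to 73.9% of all tested genes. Among the 1000 strongest were 3 to 7 (3.95% to 9.21%), against 6.86% to 7.87%. Small-subunit genes had a median mean percentile of 91.6 and large-subunit genes of 85.6, a difference that was not tested. Genes for mitochondrial ribosomal proteins had a median of 88.9, and 76 of 78 had a promoter peak in all 6 lists. The median was 88.3 for genes of S6 kinases and mTORC1, 86.3 for translation factors and 85.5 for ribosome biogenesis genes. A high median was thus not particular to the family, and the low ends of these other lists were not compared.

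Rpl15, a large-subunit protein, had the strongest peak of the family in every library, at rank 25, 19 and 20 in the Sham lists and 34, 17 and 44 in the UNx lists. Its interval (chr14:18270494-18271593 over the 6 lists) also holds the start of Nkiras1 on the other strand, and accessibility of the pair cannot be told apart. Rps29, a small-subunit protein, followed at 99.6, 99.9 and 99.6 in Sham and 99.9, 98.9 and 99.1 in UNx. Rpl37, which can bind the p53 regulator Mdm2, had a mean percentile of 99.2, and Rps21, of the small subunit, one of 98.3. The groups overlapped for all 4.

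At the low end, Rpl36, of the large subunit, was at 58.5, 44.4 and 58.2 in Sham and at 30.2, 42.0 and 50.7 in UNx. Rps15a (mean 60.5), Rpl4 (63.4), which lines the peptide exit tunnel, and Rps28 (63.9) came next. The groups overlapped for all 4, and the last 3 differed in their means by less than each of them ranged over the 6 libraries. Rpl4 shares its start region with Zwilch and Rps28 with Ndufa7.

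The stalk genes, whose proteins recruit the GTPase factors of translation, were split. Rplp0 stood at 92.0 to 98.8 and Rplp1 at 93.1 to 98.0, while Rplp2 stood at 58.2 to 77.8, below both in every library. The gene of the S6 kinase substrate, Rps6, was at 94.9, 98.7 and 93.8 in Sham and 93.5, 94.1 and 98.2 in UNx, with a difference of −0.53 percentile points (SE 1.55), or 0.93 without Sham 2. Rps27a, whose product is made fused to ubiquitin, had a mean of 96.9, and Rps19, a gene mutated in Diamond-Blackfan anaemia, one of 98.0. Rps14, the gene whose loss underlies the anaemia of the 5q deletion, ranged from 74.6 in UNx 2 to 95.2 in UNx 3. None of these had groups that did not overlap.

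**Figure D2:**
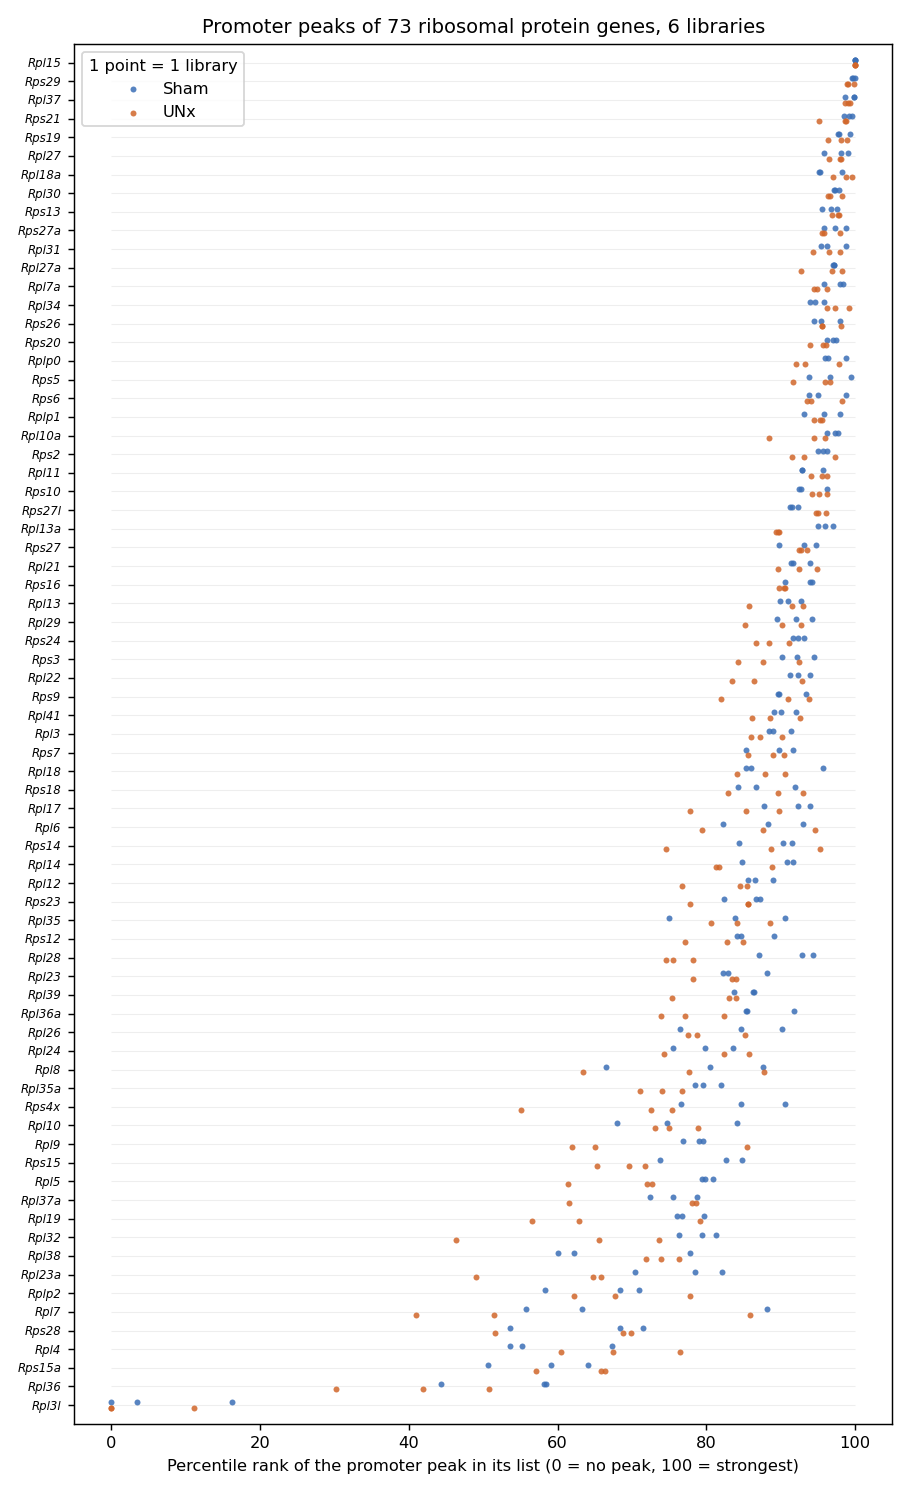
Percentile rank of the promoter peak (x axis, 100 = strongest of the list, 0 = no peak) for 73 of the 76 tested ribosomal protein genes, ordered by their mean (y axis); blue points are the 3 Sham and orange points the 3 UNx libraries. Rpl15 lies near 100 in all 6 libraries, spread grows toward the lower genes, and Rpl3l at the bottom lies between 0 and 16.3.

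The main comparison asked whether these promoters changed after UNx. No member passed the test on percentile rank (limma, Benjamini-Hochberg adjustment over all genes, threshold 0.05): 0 of 76, where 3 of 13300 coding genes (0.0226%) passed. At an unadjusted p under 0.05 there were 13 members (17.1%), against 13.9% of all genes. Of these, 10 were lower in UNx (13.2%, against 7.84%) and 3 higher (3.95%, against 6.02%). The mean was lower in UNx in 58 of the 76 (76.3%), against 52.9% of all tested genes. All Sham values lay above all UNx values in 15 members (19.7%, against 10.6%), and the reverse held in 2 (2.63%, against 9.26%).

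The median difference, UNx minus Sham, was −1.72 percentile points for the family and −0.19 for all tested genes. It was −2.37 for the 44 tested large-subunit genes (35 lower), −1.60 for the 29 small-subunit genes (21 lower) and −0.50 for the 3 stalk genes (2 lower). Among the 73 members searched for strings, it was −1.11 with TCTCGCGA and −1.72 without, and −0.50 with CCGGAAG and −2.62 without. These differences by string were not tested. By library, the family's median percentile exceeded that of all genes by 3.03, 3.67 and 4.73 points in Sham 1, 2 and 3, and by 2.14, 0.77 and 2.12 points in UNx 1, 2 and 3. The smallest excess was in UNx 2. Without UNx 2, the median difference was −0.71 (0.14 for all genes) and 61.8% of members had the lower mean. With ranks by fold enrichment, the family's median difference was −1.83, and that of all genes −1.24.

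**Figure D3:**
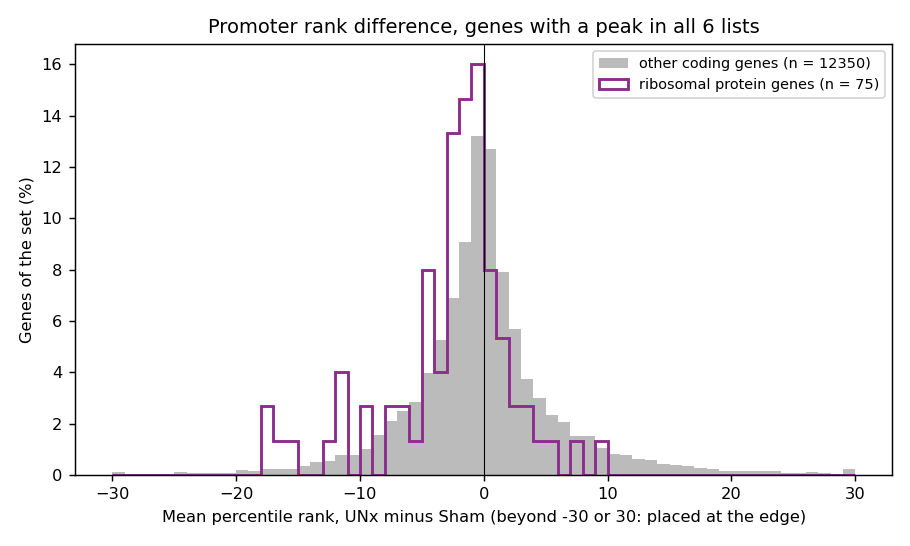
Share of genes (%, y axis) by the UNx minus Sham difference in mean percentile rank (x axis, percentile points), for 75 ribosomal protein genes (purple outline) and 12350 other coding genes (grey), all with a peak in the 6 lists. The purple outline is shifted to the left, with its largest negative value at −17.1 and its largest positive value at 9.42; the adjusted test called no member.

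The 5 largest negative differences were those of Rpl23a, Rpl32, Rps4x, Rpl28 and Rpl36. Rpl23a, a protein at the mouth of the peptide exit tunnel, was at 70.4, 78.5 and 82.1 in Sham and at 49.0, 65.9 and 64.7 in UNx. All Sham libraries lay above all UNx libraries, and UNx 1 was the lowest. The difference was −17.1 points (SE 6.10, limma adjusted p = 0.239).

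Rpl32, of the large subunit, was at 76.2, 79.4 and 81.3 in Sham and at 46.4, 65.5 and 73.6 in UNx, also without overlap. Its difference was −17.1 (SE 6.43, limma adjusted p = 0.261), and −9.40 when UNx 1 was left out. In UNx 1 the best peak was a 237 bp interval with its summit at −322 bp from the start, whereas in the other 5 libraries the summit lay between −5 and 13 bp, in intervals of 714 to 1287 bp.

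Rps4x, the X-linked small-subunit gene (start at chrX:102189394), was at 76.6, 84.6 and 90.6 in Sham and at 55.0, 72.6 and 75.4 in UNx. The lowest Sham value was just above the highest UNx value. The difference was −16.3 (SE 5.72, limma adjusted p = 0.237), and −9.95 without UNx 1, again the lowest library.

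Rpl28, of the large subunit, had the smallest adjusted p of the family. It was at 92.8, 94.3 and 87.1 in Sham and at 75.5, 74.6 and 78.2 in UNx, so that the groups were well apart. The difference was −15.3 (SE 3.47, limma adjusted p = 0.149). Its interval (chr7:4792591-4793084 over the 6 lists, GRCm38) had 1 summit in every library, within 28 bp of the start, and a width of 369 to 489 bp. When all 74781 merged regions of the genome, not promoters alone, were fitted, the same difference passed with a limma adjusted p of 0.0365, and 589 regions (0.788%) passed in that fit. Rpl36, described above, had a difference of −12.7 with overlapping groups (limma adjusted p = 0.527), which was −7.34 without UNx 1 and −6.38 with all deposited peaks.

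Rpl13a, a large-subunit protein that also takes part in translational silencing during inflammation, was singled out after its values were seen, for the tightness of its groups. It was at 94.96, 97.0 and 96.0 in Sham and at 89.4, 89.7 and 89.7 in UNx. The difference was −6.39 (SE 1.78, limma adjusted p = 0.169).

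The 5 largest positive differences were smaller, and the groups overlapped in 4 of them. Values are given for 4 of the 5. Rpl4 was at 55.2, 53.5 and 67.3 in Sham and 67.4, 60.4 and 76.5 in UNx (9.42, SE 6.58). Rpl38, needed in the mouse embryo for translation of Hox mRNAs, was at 60.1, 62.2 and 77.7 in Sham and 71.9, 76.2 and 73.9 in UNx (7.37, SE 5.71). Rps15a, of the small subunit, followed (5.15, SE 6.57). Limma adjusted p-values for these 3 were 0.544 to 0.752. With 1 library left out the difference ran from 5.21 (without UNx 3) to 13.7 for Rpl4, from 4.07 (without Sham 1) to 12.9 (without Sham 3) for Rpl38 and from 1.53 (without Sham 2) to 8.22 (without Sham 3) for Rps15a. With a 500 bp window, which leaves out the summit of Rpl38 inside its gene, that gene's difference was 1.17.

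The groups were apart for Rps27l, at 91.5, 92.3 and 91.3 in Sham and at 94.9, 96.1 and 94.8 in UNx. The spread within each group was under 1 point (SD 0.56 and 0.73). The difference of 3.57 (SE 1.63) had a limma adjusted p of 0.345. Its paralogue Rps27 was at 89.7 to 94.7 in Sham and 92.5 to 93.5 in UNx, with a difference of 0.36 (SE 1.92). The difference between the paralogues was not tested.

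Rpl5 and Rpl11, which bind Mdm2 together and so link ribosome assembly to p53, had differences of opposite sign. Rpl5 was at 80.9, 79.8 and 79.4 in Sham and at 61.4, 72.0 and 72.7 in UNx (−11.3, SE 4.84, limma adjusted p = 0.312). Rpl11 was at 92.8, 95.6 and 92.8 in Sham and at 95.5, 96.2 and 94.0 in UNx (1.49, SE 1.51), with overlap. Rpl22, an RNA-binding protein with a role in lymphocyte development, had a difference of −4.95 (SE 2.69) with overlapping groups. The X-linked Rpl10, which is added late in assembly, had one of 0.03 (SE 4.99), Rpl39 one of −4.66 (SE 3.63) and Rpl3 one of −1.76 (SE 2.61). With 1 library left out, these 4 ran from −7.59 to −2.93, −3.77 to 4.30, −6.24 to −1.94 and −2.93 to −0.87.

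Peak widths were close to those of other genes. The mean interval of the 75 genes with a peak in all lists had a median width of 880 bp, against 907 bp for all 12425 such genes. The widest were Rpl10a (1380 bp), Rps29 (1188 bp) and Rpl7a (1178 bp), and the 3 narrowest included Rpl36 (414 bp) and Rpl28 (432 bp). No member passed the width test (0 of 75, as 0 of all genes, 0%), with 10 at an unadjusted p under 0.05 (13.3%, against 10.2%). The mean interval was wider in UNx in 61 of 75 (81.3%), against 84.1% of all genes, and the median log2 difference was 0.14 for both. The family's was 0.06 without Sham 2 and 0.07 without UNx 3. Over all peaks, Sham 2 had the lowest median −log10 q of the lists (12.1) and the smallest median width (342 bp). UNx 3 had the highest (26.5) and the largest (422 bp). The part of list strength in the widths was not tested.

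Rpl10a combined a wider interval with a lower rank in UNx. It measured 1205, 1253 and 1305 bp in Sham and 1376, 1447 and 1691 bp in UNx, a log2 difference of 0.26 with no overlap (limma adjusted p = 0.476). Its percentile was 96.2, 97.3 and 97.7 in Sham and 88.3, 96.0 and 94.4 in UNx (−4.13, SE 1.74, limma adjusted p = 0.308), a difference of −1.85 without UNx 1. Across 73 of the genes, wider intervals went with higher mean percentiles (Spearman rho 0.51, and 0.44 over 12114 coding genes), as did a higher GC content (0.43, against 0.15). These are descriptions across genes, which share the same 6 libraries.

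**Figure D4:**
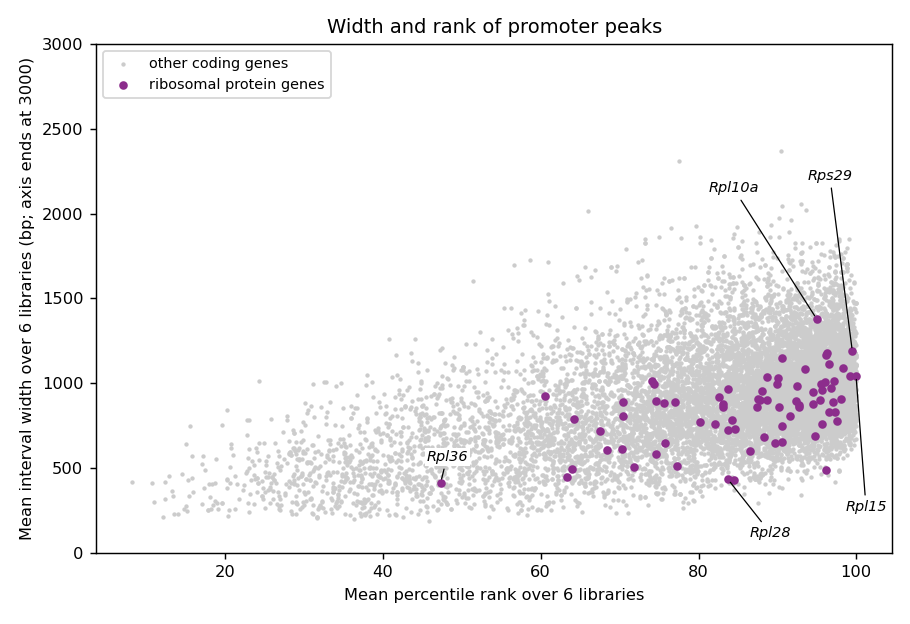
Mean interval width (bp, y axis) against mean percentile rank (x axis) over 6 libraries, for 75 ribosomal protein genes (purple) and other coding genes (grey), all with a peak in the 6 lists. Rpl36, with the lowest rank of the 75 genes, is also the narrowest at 414 bp, Rpl28 (432 bp) is narrow at mid rank, and Rpl10a is the widest at 1380 bp.

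The number of summits inside the interval changed in 1 member, Rpl36a, an X-linked large-subunit gene, with 2 summits in each Sham and 3 in each UNx library (limma adjusted p = 2.11e-06). That is 1 of 75 (1.33%), against 1.34% of all genes. Summits are small whole numbers: 158 of the 167 genes called had no spread in either group, as here, and a difference of 1 summit without spread passes this test. The interval of Rpl36a was also wider in UNx (1111, 1050 and 1055 bp against 945, 611 and 730 bp), while its percentile was lower (82.3, 73.9 and 77.1 against 91.8, 85.4 and 85.3, −9.75, SE 3.77, limma adjusted p = 0.273). The family had 2.64 summits per interval on average, and all genes 2.55.

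The strongest summit lay close to the annotated start. Its median position was −24 bp (−27 bp for all genes), and in 59 of 75 members (78.7%) it was within 100 bp of a start, against 62.9% of all genes. It fell upstream of the gene in 39 members (52%, against 49.4%), in an exon in 31 (41.3%, against 34.3%) and in an intron in 5 (6.67%, against 16.2%). The farthest downstream of the members named was Rpl38, whose summit was 504 to 522 bp inside the gene, in an intron, in all 6 libraries. No member passed the test on position (0 of 75, against 0.909% of all genes), and 6 had an unadjusted p under 0.05 (8%, against 8.88%).

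Between libraries the summit of a member moved over a range of 29 bp at the median, against 41 bp for all genes. In 11 members it moved over 100 bp, a count that is not set against all genes here. For Rpl10 it was at −450, −466 and −465 bp in Sham 2, Sham 3 and UNx 3 and at −147 to −122 bp in the others. For Rpl39 it lay 155 bp inside the gene in UNx 1 and UNx 2 and at −132 to −119 bp in the others. Rpl7, singled out after its values were seen, moved most: intervals of 1937 and 1901 bp in Sham 1 and UNx 3 held 5 summits each, whereas the other 4 libraries had 1 summit in 210 to 233 bp, and its percentile was 88.1 and 85.9 against 40.9 to 63.3.

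**Figure D5:**
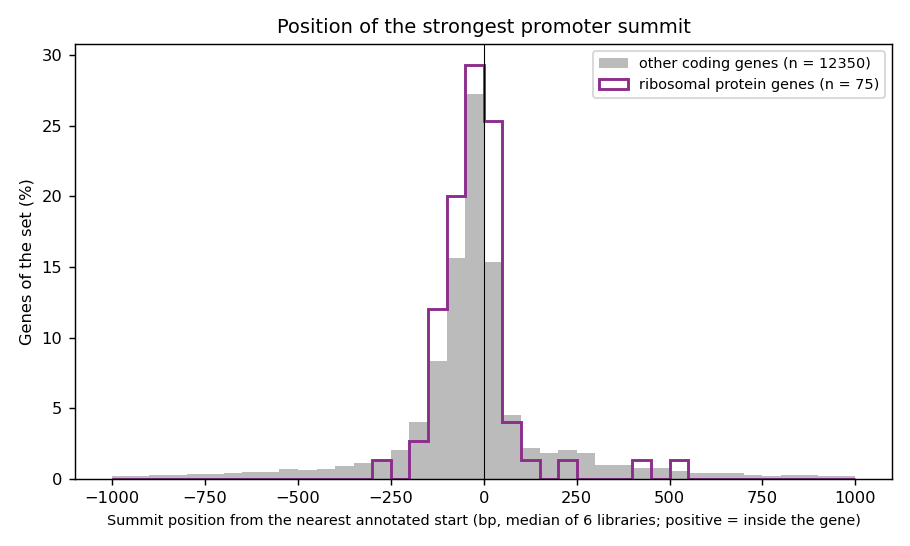
Share of genes (%, y axis) by the position of the strongest promoter summit from the nearest annotated start (bp, x axis, median of 6 libraries, positive inside the gene), for 75 ribosomal protein genes (purple outline) and 12350 other coding genes (grey). Of the 75 genes, 59 lie within 100 bp of the start, and the outline lacks most of the broad tails of the grey bars.

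Genomic context also differed from that of other genes. A small nucleolar RNA gene, which guides modification of ribosomal RNA, lay inside 28 of the 79 genes (35.4%), against 1.18% of all coding genes, with 5 inside Rpl4 and 4 inside Rpl13a. Another coding gene started on the opposite strand within 1 kb in 12 members (15.2%, against 10.1%): Rpl15, Rps27a, Rpl7a, Rps27, Rpl18, Rps18, Rpl12, Rpl35a, Rpl9, Rps28, Rpl4 and Rps25. Rps25 had no peak, and for the others a peak may belong to either gene.

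Other genes of ribosome production were compared by the same fit, and no gene of the 4 lists that follow passed it. Of 77 tested genes for mitochondrial ribosomal proteins, 52 had a lower mean in UNx, with a median difference of −0.48. Of 37 translation factors 22 were lower (median −0.62), and of 61 ribosome biogenesis genes 34 (−0.59). Of 22 genes of S6 kinases and mTORC1 only 8 were lower (0.50). All of these medians were nearer to that of all genes (−0.19) than the family's −1.72, a difference that was not tested. The share lower was 67.5%, 59.5%, 55.7% and 36.4% in that order, against 76.3% of the family and 52.9% of all genes. At an unadjusted limma p under 0.05, 7 of the 37 translation factors were lower and 0 higher. The family had 10 of 76 lower (13.2%, against 7.84% of all genes) and 3 higher. The mitochondrial, biogenesis and kinase lists had 2, 4 and 1 lower, and 1, 1 and 0 higher.

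Among the translation factors, Eef1a1, which delivers aminoacyl-tRNA and whose mRNA carries the same pyrimidine motif, was at 99.2, 99.7 and 99.4 in Sham and at 97.8, 97.3 and 96.0 in UNx (−2.38, limma adjusted p = 0.169). In the kinase list, Mlst8, a subunit of mTORC1, was at 95.2, 93.0 and 96.0 in Sham and at 84.8, 84.3 and 86.1 in UNx (−9.69, limma adjusted p = 0.162). The groups did not overlap for Eef1a1 or Mlst8. Eif4ebp1, of the same kinase list, was higher in UNx, also without overlap. It was at 71.7, 65.6 and 73.5 in Sham and at 73.7, 84.7 and 80.4 in UNx (9.34, limma adjusted p = 0.403). Among biogenesis genes, Nop16, a nucleolar protein, had a difference of −2.87 (limma adjusted p = 0.199), and the mitochondrial Mrpl13 one of 12.8 in the other direction (limma adjusted p = 0.225).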

How the data were processed

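ATAC-seq libraries of hand-dissected S1 tubules were compared, 3 Sham against 3 UNx, with 1 deposited peak list per library, so peaks were called separately and not pooled. Per the submitters' processing notes, cutadapt 3.4, Bowtie, SAMtools, Picard and MACS2 2.2.7.1 were used, with build mm10; their settings and the filter behind the lists are not given in the sources used here. Each summit of the deposited lists carries a display score, a fold enrichment (a ratio over background), a −log10 p, a −log10 q, and a position. All intervals lay within GRCm38 chromosome lengths.

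Here a peak was a distinct interval with its strongest summit, and each list was cut to its 77355 strongest peaks by −log10 q. A gene took its best peak with a summit within 1 kb of a GENCODE M21 basic transcript start. Percentile ranks (0 with no peak) of 13300 genes with a peak in at least 3 lists, and the log2 width, log2 summit number and summit position of the best peak for 12425 genes in all 6, were fitted with limma 3.58.1 in R 4.3.3 (lmFit, then eBayes with its trend and robust options; two-sided tests, Benjamini-Hochberg adjustment over all genes, threshold 0.05). On simulated ranks for UNx against Sham over these 13300 genes, 1 gene was called with none changed. Of 200 changed genes, 27.5%, 69.5% and 69.5% were recovered at shifts of 1, 2 and 4 normal scores, with 6, 8 and 11 false calls. On that scale the family's median difference was −0.11, smaller in size than every simulated shift, so recovery at that size was not simulated. Depth is unknown, so no counting interval is given. Sequences came from the GRCm38 genome, without chromosome 18.

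Members and lists were chosen with earlier results of these data known. Genes named were those past a threshold, those with a peak in fewer than 6 lists, the 5 largest differences each way, the 4 highest and lowest ranks, the 3 widest and narrowest, a fixed set including Rps6, Rpl5 and Rpl11, and at most 3 genes of smallest p per other list. Some genes and sequences that this rule selects are not reported here.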

Additional observations from a re-analysis of the deposited data

How the results depend on the processing

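For 3 genes with small differences the sign turned: Rpl10 (−6.43 with the 20000 strongest peaks, −0.014 with normal scores, −0.14 with GC-corrected ranks, with or without the replicate block), Rps6 and Rps27, which with 1 library left out ran from −1.99 to 0.93 and −1.03 to 1.47; Rpl10 then ran from −3.77 to 4.30. The other genes refitted under these alternatives kept their sign. With the 20000 strongest peaks a percentile point spans fewer peaks, so by construction a given shift in rank is a larger difference. Under the 19 alternatives for percentile rank the family's median difference stayed negative and 61.8% to 82.9% of members had the lower mean in UNx. With the 20000 strongest peaks the median was −6.19 over 65 genes, and leaving out 1 library gave −2.44 to −0.71. The median of all genes moved with the setting, to 0.40 with all deposited peaks, 0.14 without UNx 2, −0.98 with the 20000 strongest and −1.24 by fold enrichment; the family's median was lower by 1.22, 0.85, 5.21 and 0.59 points. Against 3 rank calls over all genes, there were 1 with the 20000 strongest peaks, 21 with a 500 bp window, 33 with normal scores, 6 with GC-corrected ranks and 589 with merged regions, where 1 member, Rpl28, passed. Leaving out 1 library gave 0 to 14, the 14 without UNx 3 and 0 without Sham 2 or Sham 3, and 0 members. The adjusted p of Rpl28 ran from 0.0365 to 0.342. Width calls were 2 with a 500 bp window, 3 with 2.5 kb and 0 to 3 with 1 library left out, where the family's median ran from 0.06 to 0.19; its summit-number median (0.19) was 0 without Sham 2 or UNx 2. With 1 library left out, summit-number calls ran from 319 of 12468 genes to 452 of 12511, with 1 to 3 of the 75 members. Position calls ran from 179 of 12468 to 232 of 12486, with 0 to 1 members. The 20000 strongest peaks, and ranking by fold enrichment, were applied to width, summit number and position after the data were seen: the former gave 8 width, 107 summit-number (0 members) and 74 position calls. The cause was not tested.

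Same-numbered Sham and UNx libraries had correlations of 0.04, −0.07 and 0.04 in their deviations from the group means, and differently numbered ones −0.12 to 0.08. Deviations from a group mean are tied to each other, so these values cannot show whether same-numbered libraries were handled together. With the replicate block the fits called 2 genes by rank (5 with GC-corrected ranks) and 56 by position, against 113, and no member in either.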
